A study of Mus musculus with 211 samples.

Results

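The genes described here are 9 transcripts of basophils and mast cells, found in a table of single cells sorted from the adult mouse cochlea: *Prss34*, *Mcpt8*, *Fcer1a*, *Ms4a2*, *Cpa3*, *Gata2*, *Hdc*, *Il6* and *Il4*. They are 9 of the 48709 genes in the count table and were located by Ensembl identifier. The members were chosen by their counts in these cells, which in earlier results lay together in a few cells, and by the levels of *Il6* and *Fcer1a*, which were higher at P120 than at P60. Their joint presence and that age difference are therefore given as a description, without a test. The first 7 genes are called lineage members below, and *Il6* and *Il4* the cytokine members.

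The cells came from CD1 mice of either sex that carry the Lfng-EGFP transgene, a bacterial artificial chromosome from which the *Lfng* promoter drives EGFP in cochlear supporting cells. Cochleae were taken at P60 or P120, and no treatment or other allele separates the ages. The GFP-positive cells that excluded propidium iodide were collected by FACS and loaded on a Fluidigm C1 chip, which makes 1 full-length cDNA library from each captured cell. Each capture pooled 4 mice, so that a single mouse cannot be followed, and the authors removed endothelial cells and outliers before deposit. The table holds 211 cells, with 3 to 24 P60 cells from each of 8 captures (9c, 10c, 17c, 19c, 20c, 21c, 31 and 40) and 16 to 37 P120 cells from each of 4 captures (28, 32, 36 and 38). The metadata name 3 sequencing runs: S047 holds only P60 captures, whereas S059iso1 and S059iso2 each hold cells of captures 28, 31, 32, 36, 38 and 40. A cell had between 41 and 5361476 reads on genes (median 736455), and 164 of 211 cells had at least 50000 reads. No pair of cells had identical counts, and the reads carry no molecular identifiers.

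Basophils are rare circulating granulocytes, and mast cells are their tissue-resident counterparts. Both carry the high-affinity IgE receptor FcεRI, and when antigen crosslinks IgE bound to it they release stored granule contents, histamine among them, and secrete cytokines such as IL-4 and IL-6. In the mouse the granule protease mMCP-8, encoded by *Mcpt8*, marks basophils, whereas the chymases and tryptases encoded by *Cma1*, *Mcpt4*, *Tpsab1* and *Tpsb2* mark mast cells of connective tissue. Neither cell type is a supporting cell of the organ of Corti.

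The 9 genes lie on 9 different chromosomes of GRCm38. *Prss34* spans chr17:25298394-25300165 on the + strand, *Mcpt8* chr14:56082166-56085273 on the - strand and *Cpa3* chr3:20215620-20242181 on the - strand. The receptor genes *Fcer1a* and *Ms4a2* lie at chr1:173221284-173227214 and chr19:11615523-11623719, both on the - strand. *Gata2* spans chr6:88193891-88207032 on the + strand, and *Hdc* spans chr2:126593667-126619299 on the - strand. *Il6* is at chr5:30013114-30019981 on the + strand and *Il4* at chr11:53602982-53618669 on the - strand. The annotated genes that overlap a member are *Mir6949* within *Mcpt8* and *Mir7007* within *Cpa3*, each on the host's strand.

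Because the members were found in the same cells, the 100 bases before their transcription starts are shown for 6 of them, taken from the RefSeq table of promoters (GRCm38.p6). Capitals mark the motif GATAA, the core letters bound by GATA factors, searched on both strands so that it also appears as TTATC.
Prss34, chr17:25298294-25298393, + strand: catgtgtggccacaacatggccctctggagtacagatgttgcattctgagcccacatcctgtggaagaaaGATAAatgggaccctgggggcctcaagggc
Mcpt8, chr14:56085198-56085297, - strand: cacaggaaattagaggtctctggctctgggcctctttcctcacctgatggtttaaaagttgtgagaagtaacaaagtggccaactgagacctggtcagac
Fcer1a, chr1:173227230-173227329, - strand: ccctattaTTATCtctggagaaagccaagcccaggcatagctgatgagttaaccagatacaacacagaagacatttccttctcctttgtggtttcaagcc
Ms4a2, chr19:11623720-11623819, - strand: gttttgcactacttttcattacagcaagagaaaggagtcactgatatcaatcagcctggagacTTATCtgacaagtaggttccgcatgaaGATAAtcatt
Cpa3, chr3:20242182-20242281, - strand: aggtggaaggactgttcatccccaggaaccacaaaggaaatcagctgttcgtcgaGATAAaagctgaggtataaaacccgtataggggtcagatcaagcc
Il6, chr5:30013014-30013113, + strand: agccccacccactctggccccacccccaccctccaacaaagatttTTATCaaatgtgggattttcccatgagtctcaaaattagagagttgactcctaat
Of the 11 member windows of 100 bases, 5 held GATAA (*Prss34*, *Fcer1a*, *Ms4a2*, *Cpa3* and *Il6*), and that of *Ms4a2* held it at 2 places. Those of *Mcpt8*, *Gata2*, *Hdc* and *Il4* did not hold it. Among all 32817 promoters of the table, 8.56% held these letters in the same window. The first base of the motif lay 30 bases before the start of *Prss34*, 45 before that of *Cpa3* and 92 before that of *Fcer1a*. In the longer windows of 250 bases before to 50 after the start, GATAA was present in 6 of 11 member promoters against 25.4% of all promoters, with *Il4* as the added gene. In these longer windows TGTGGT, the core of the RUNX motif, was present in 3 of 11 (*Mcpt8*, *Fcer1a* and *Cpa3*) against 16.8%. TTGCNNAA, which C/EBP factors bind, was present in 3 of 11 (*Fcer1a*, *Il6* and *Il4*) against 10.8%. These are matches of letters and not measured binding sites.

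The 7 lineage members were present together at high counts in 12 cells and in no other cell. In these 12 cells, called full-set cells below, every lineage member had at least 100 reads. Among the remaining cells 112 had no lineage member at 100 reads, 86 had 1 and a single cell had 2, and no cell had between 3 and 6. The full-set cell nearest to the limit was the shallowest, with 201535 reads, 138 of them on *Hdc*, 141 on *Fcer1a* and fewer on *Ms4a2*. The cell nearest to the limit from outside had 5553 reads of *Cpa3* and 1271 of *Hdc*, but 89 of *Prss34*, 14 of *Mcpt8*, 1 of *Fcer1a* and none of *Ms4a2* or *Gata2*. That cell came from capture 32, run S059iso2, and also had 11081 reads of *S100a9* and 1841 of *Prg2*, genes of neutrophil and eosinophil granulocytes.

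The 7 genes took a median of 9.03% of all reads on genes in the full-set cells, with a range from 1.57% to 21.4%. In the remaining cells their median share was 0.0284%. The full-set cells had 3523 to 8065 detected genes with a median of 4899, compared with a median of 2126.5 in the other cells that reached 50000 reads. Their median depth was 1769607 reads and their median GFP score, a normalized image intensity deposited by the authors, was 92.5, against 367 in the other cells. Within captures the GFP order varied: the medians were 73.5 and 608 in capture 32, 393 and 403.5 in capture 38, and 389.5 and 319 in capture 28 for full-set and other cells.

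**Figure D1:**
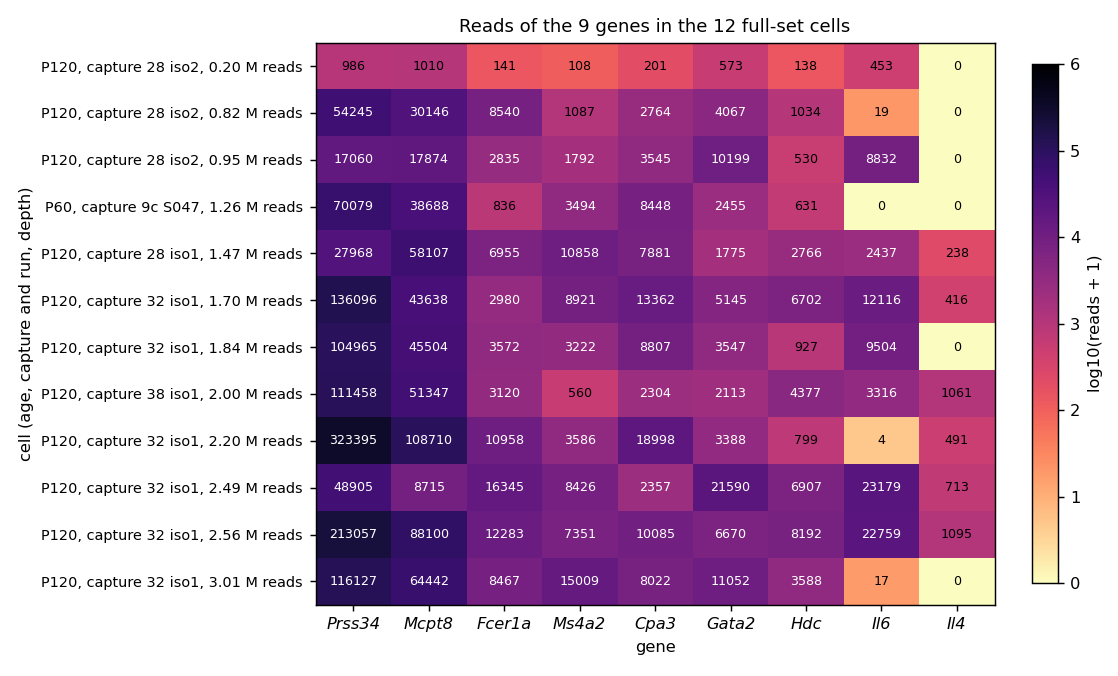
Heat map of the reads of the 9 genes (columns) in the 12 full-set cells (rows, ordered by depth and labelled with age, capture, run and depth). Color gives log10(reads + 1) and the numbers are the reads. The 7 lineage members were above 100 reads in every row, whereas *Il6* was under 20 in 4 rows and *Il4* was 0 in 6.

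Among the granule proteases, *Prss34*, which encodes the tryptase mMCP-11, had the most reads. Its counts in the full-set cells ran from 986 to 323395 with a median of 87522, and 99.9% of its 1225723 reads in the table fell in these cells. *Mcpt8* had 1010 to 108710 reads with a median of 44571, and *Cpa3*, the carboxypeptidase A shared by basophils and mast cells, had 201 to 18998 with a median of 7952. Expressed per length, as RPKM (reads per kilobase of exon, scaled to the reads of the cell), the median levels were 45659 for *Prss34*, 25733 for *Mcpt8* and 2536 for *Cpa3*. Of the reads of *Mcpt8* and *Cpa3*, 99.9% and 93.9% fell in the full-set cells, the single cell of capture 32 described above holding most of the rest of *Cpa3*.

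The receptor genes came next. *Fcer1a*, the IgE-binding α chain of FcεRI, had 141 to 16345 reads with a median of 5264 in the full-set cells, and outside them no cell had more than 11. *Ms4a2*, the β chain that amplifies the receptor's signal, had up to 15009 reads with a median of 3540, and at most 29 outside. The median levels per length were 2909 for *Fcer1a* and 830 for *Ms4a2*. *Gata2*, a transcription factor required for the basophil and mast cell lineages, had 573 to 21590 reads with a median of 3807, and at most 17 outside. Its level per length was 505. The counts of *Fcer1a*, *Ms4a2* and *Gata2* in full-set and other cells did not overlap. The class itself requires at least 100 reads of each of these genes. The share of all genes without overlap was not computed, so nothing is read from this.

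The members varied among the 12 cells over a wide range relative to their depth. In CPM, a count scaled to the reads on genes of the same cell or pool, *Prss34* ranged from 4892 to 147126, which is 30.1-fold, and *Ms4a2* covered 26.4-fold. *Fcer1a* covered 15.7-fold, *Mcpt8* 14.1-fold, *Gata2* 10.2-fold and *Cpa3* 9.13-fold. The cell of capture 32 with 48905 reads of *Prss34* and 8715 of *Mcpt8* had the highest *Fcer1a* and *Gata2* read counts of the 12. Relative to depth it had the lowest *Mcpt8*, 3501 CPM, beside 6566 CPM of *Fcer1a* and 8673 of *Gata2*. The highest *Fcer1a* and *Gata2* levels, 10425 and 10787 CPM, were in cells of capture 28. The proteases and the receptor thus did not follow a common order. With a single cDNA library per cell, variation in capture and amplification cannot be told apart from variation between cells.

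*Hdc*, histidine decarboxylase, which makes histamine, was the exception among the lineage members. It had 138 to 8192 reads in the full-set cells with a median of 1900, but only 15% of its reads fell there. *Hdc* was found with at least 1 read in 184 of 211 cells, and 82 cells outside the 12 had at least 100 reads, up to 16764. Its pooled level in full-set cells was 1786 CPM, against 1039 CPM in the others. *Hdc* therefore did not separate the full-set cells, and the split was set by the other lineage members.

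**Figure D2:**
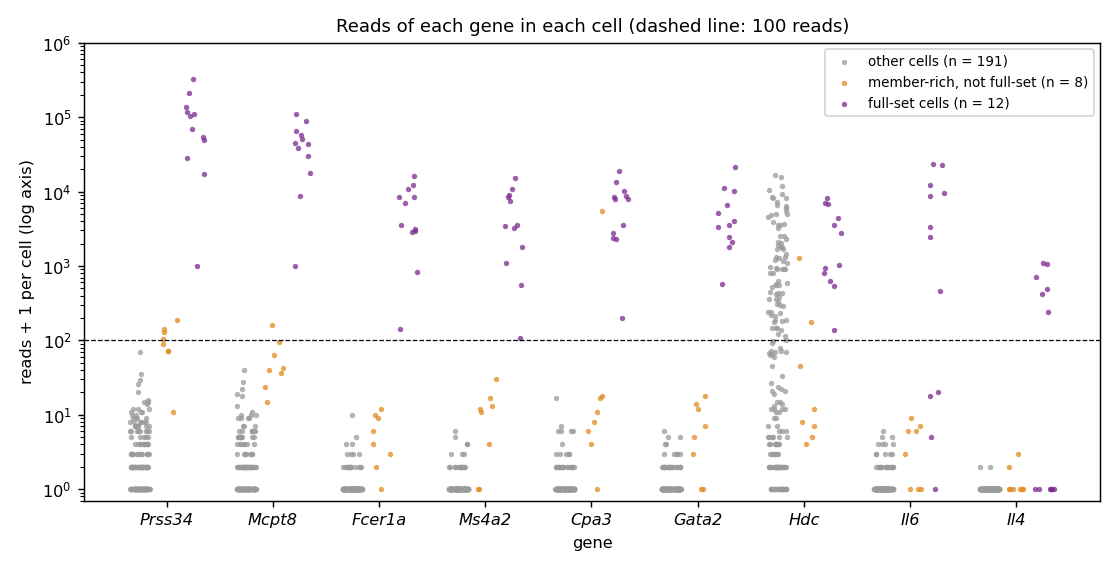
Reads plus 1 (log axis) of each gene in each cell, with the 12 full-set cells in purple, the 8 member-rich cells that are not full-set in orange and the other cells in grey. The dashed line marks 100 reads. For *Fcer1a*, *Ms4a2* and *Gata2*, which the class requires at 100 reads, every purple point lies above every other point. For *Hdc*, also in the class rule, the grey points span the purple ones.

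The cytokine members were held by some of these cells. *Il6* had at least 100 reads in 8 of the 12 full-set cells, from 453 to 23179 with a median of 9168, and 0 to 19 in the other 4. Outside the 12 its highest count was 8. *Il4*, the type 2 cytokine that basophils secrete, had 238 to 1095 reads in 6 full-set cells with a median of 602 and no read in the other 6, and at most 2 reads in any other cell. Both cytokines were at 100 reads or more in 5 cells, *Il6* alone in 3, *Il4* alone in 1 and neither in 3. The cell with 323395 reads of *Prss34*, the highest, had 4 reads of *Il6* and 491 of *Il4*, and the only P60 full-set cell had none of either. *Il13*, the other type 2 cytokine in the lists, had no read in any full-set cell, and *Ltc4s* and *Hpgds*, enzymes of leukotriene and prostaglandin synthesis, had none either.

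The full-set cells were spread unevenly over the captures and runs. At P120 11 cells were full-set, which is 10.1% of the cells of that age (exact 95% interval 5.15% to 17.3%), and at P60 1 cell, which is 0.980% (0.0248% to 5.34%). Capture 32 held 6 of them among 27 cells, capture 28 held 4 among 37, capture 38 held 1 among 29 and capture 36 none among 16. The P60 cell came from capture 9c, where it was 1 of 19, and the other P60 captures held none among 3 to 24 cells. Per capture the share was 9.12% ± 9.83 (SD, n = 4 captures) at P120 and 0.658% ± 1.86 (SD, n = 8 captures) at P60, and the captures of both ages overlapped at 0%. Intervals and floors cover counting error only.

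Within the 4 P120 captures the full-set cells fell mostly in run S059iso1. In capture 32, 6 of 11 cells of S059iso1 were full-set (54.5%, exact 95% interval 23.4% to 83.3%) and 0 of 16 cells of S059iso2 (upper limit 20.6%). The median depth of these cells was 2437967 reads in S059iso1 and 472247 in S059iso2. In capture 28 the counts were 1 of 5 in S059iso1 and 3 of 32 in S059iso2, and in capture 38 they were 1 of 13 and 0 of 16. At P60, captures 31 and 40 had 0 of 10 and 0 of 18 full-set cells in S059iso1. What the labels iso1 and iso2 stand for is not given in the sources used here, and the part of the run in these shares was not tested.

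A second class, set by a lower limit, shows the cells around the full-set cells. A cell was called member-rich when at least 3 of the 7 lineage members had at least 10 reads each. There were 20 member-rich cells, 19 at P120 (17.4% of the cells, exact 95% interval 10.8% to 25.9%) and 1 at P60 (0.980%). They comprise the 12 full-set cells and 8 cells with few reads of these genes, a median of 212 reads over the 6 lineage members without *Hdc*. Just under the limit, 14 cells had exactly 2 members at 10 reads, and just above it, 3 cells had exactly 3. When each cell was thinned at random to 50000 reads, 12 of 84 P120 cells and 1 of 80 P60 cells met the rule, and these 13 cells included all 12 full-set cells.

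Low counts of these genes were also found outside the full-set cells. The pooled level of *Prss34* in the cells that were not full-set was 56.1 and 41.6 CPM in captures 32 and 28 of run S059iso1, 15.8 and 4.82 CPM in captures 36 and 38, and 0.181 and 0.927 CPM in the P60 captures 31 and 40 of that run. In S059iso2 it was 10.3 CPM in capture 32, with 89 reads in 1 cell, 6.04 CPM in capture 28 and at most 0.494 CPM in the other captures. In S047 it was 1.2 to 5.35 CPM, except for 159 CPM in capture 10c, where the median depth was 451 reads and no cell had more than 5 reads of *Prss34*. The levels were thus highest, apart from capture 10c, in the 2 sets of cells of S059iso1 with the largest shares of full-set cells. In run S059iso1, *Prss34* made up 49.7% of the reads of the 6 lineage members without *Hdc* in cells that were not full-set and 60.1% in full-set cells. *Mcpt8* made up 32.6% and 26%, and *Fcer1a* 3.56% and 3.59%. In run S059iso2 the shares differed: *Prss34* made up 5.42% in cells that were not full-set and 46% in full-set cells, and *Cpa3* 91% and 4.14%, where 1 cell that was not full-set held 5553 reads of *Cpa3*. All reads of *Prss34* outside the full-set cells amounted to 0.113% of those inside. These counts are small beside those inside and are not read here as expression. Both class limits are read counts, so that a shallow cell can miss them at any share. A member-rich cell of capture 32, run S059iso1, with 2603 reads had 5.26% of them on the 7 genes. This share lay within the range of the full-set cells. A cell of capture 28, run S059iso2, with 5183 reads had 28 of *Prss34* and 17 of *Mcpt8*. The source of the reads outside the full-set cells was not tested.

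**Figure D3:**
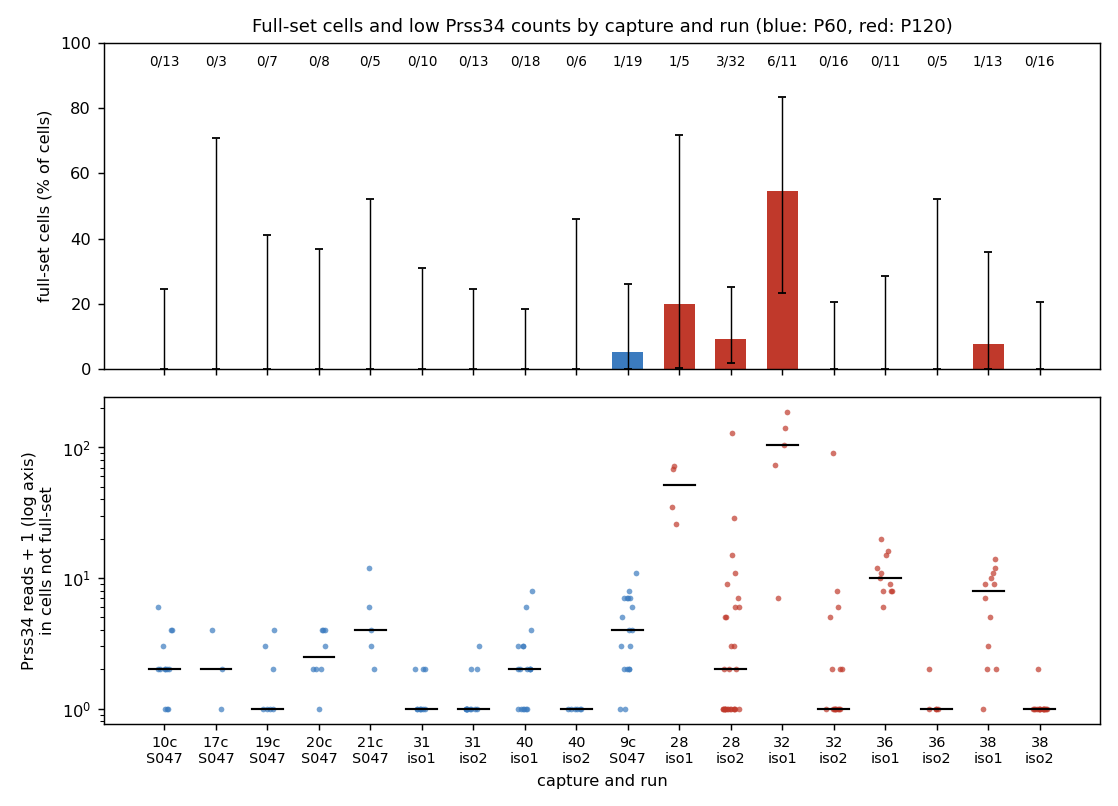
Upper panel: percent of cells that were full-set in each capture and run, P60 in blue and P120 in red, with exact 95% intervals and the counts above the bars. Lower panel: *Prss34* reads plus 1 (log axis) in each cell that was not full-set, with the median as a line. The highest share, 6 of 11, belongs to capture 32 in run S059iso1, where cells that were not full-set reached 186 reads.

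The next comparison asks how far the P120 to P60 difference of *Il6* and *Fcer1a* rests on these cells. Over all cells, *Il6* was at 732 CPM at P120 and 0.0840 CPM at P60, a difference of 9.4 in log2(CPM + 1). *Fcer1a* was at 675 and 7.88 CPM, a difference of 6.25. By capture, *Il6* was at 266, 2025, 0.986 and 127 CPM in captures 28, 32, 36 and 38, and at 0 to 8.39 CPM in the P60 captures. *Fcer1a* was at 418, 1636, 0.767 and 119 CPM in the same P120 captures, 63.2 CPM in capture 9c and at most 0.174 CPM in the other P60 captures. For both genes capture 36, which had no full-set cell, lay within the range of the P60 captures. The top of that range was 1 read in the shallow capture 10c for *Il6* and capture 9c, with its full-set cell, for *Fcer1a*. The other P60 captures reached 0.642 and 0.174 CPM, below the 0.986 and 0.767 CPM of capture 36. The mean over captures was 605 ± 953 CPM (SD, n = 4) at P120 and 1.17 ± 2.92 CPM (SD, n = 8) at P60 for *Il6*, and 544 ± 749 against 7.93 ± 22.3 CPM for *Fcer1a*.

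A few cells held nearly all of these reads. At P120 the 11 full-set cells held 99.9% of the *Il6* reads and 99.9% of the *Fcer1a* reads. The highest single cell held 28% of the *Il6* reads at P120, the highest 3 held 70.2% and the highest 5 held 92.4%. For *Fcer1a* the corresponding shares were 21.4%, 51.9% and 74.2%. At P60, 836 of the 845 *Fcer1a* reads (98.9%) came from the single full-set cell, and the 9 *Il6* reads came from 8 cells.

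When the full-set cells were left out, *Il6* had 68 reads in the remaining 98 P120 cells and 9 reads in the P60 cells, or 0.726 and 0.0850 CPM. The difference was then 0.67 in log2(CPM + 1). *Fcer1a* had 71 and 9 reads, or 0.758 and 0.0850 CPM, with a difference of 0.70. Leaving out only the highest P120 cell gave 8.96 for *Il6* and 5.94 for *Fcer1a*, and leaving out the highest 5 gave 5.84 and 4.45. Without all member-rich cells the differences were 0.48 and 0.36. Removing 12 of 211 cells thus took the differences from 9.4 to 0.67 and from 6.25 to 0.70, and the reads that remained were the low counts described above. The remaining levels lay below the pseudocount of 1 CPM, which limits these differences. As ratios of P120 to P60 they were 8.54 for *Il6* and 8.92 for *Fcer1a*. *Il6* had a read in 25.5% of the remaining P120 cells and 7.92% of the P60 cells, and *Fcer1a* in 24.5% and 4.95%. For *Fcer1a* the fall is partly built in, because the full-set class requires at least 100 of its reads.

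**Figure D4:**
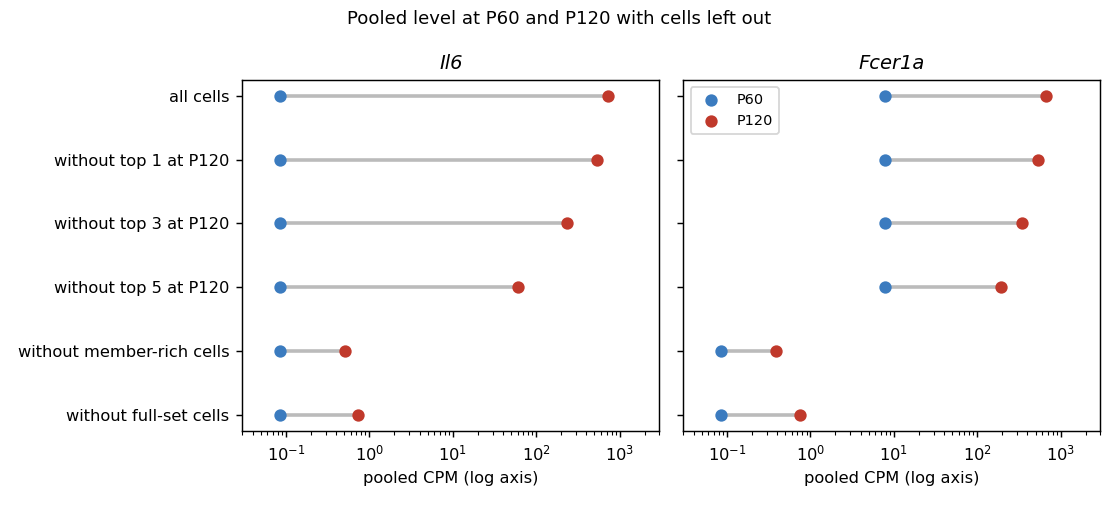
Pooled CPM (log axis) of *Il6* and *Fcer1a* at P60 (blue) and P120 (red) over all cells and after leaving out the 1, 3 or 5 P120 cells with the most reads of the gene, the member-rich cells or the full-set cells. Without the full-set cells the P120 points fall from 732 to 0.726 CPM for *Il6* and from 675 to 0.758 CPM for *Fcer1a*.

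Since run S047 holds only P60 captures, the ages were also set side by side within runs. In S059iso1, *Il6* was at 394, 2958, 1.27 and 193 CPM in captures 28, 32, 36 and 38 and at 0.0604 and 0.0686 CPM in the P60 captures 31 and 40. In S059iso2 it was at 245 CPM in capture 28, 0 in captures 32, 36 and 38, and 0.0571 and 0 CPM in captures 31 and 40. *Fcer1a* was at 1122, 2390, 0.986 and 182 CPM in the P120 captures and at 0.121 and 0.240 CPM in the P60 captures in S059iso1. In S059iso2 *Fcer1a* was at 303 and 0.285 CPM in captures 28 and 32 and at 0 in the other captures. The values above 100 CPM were in captures 28, 32 and 38 of S059iso1 and in capture 28 of S059iso2. In capture 36 of S059iso1 they rested on 9 reads of *Il6* and 7 of *Fcer1a*.

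The other members are given in the same way. Over all cells the P120 and P60 levels were 10230 and 655 CPM for *Prss34*, 4589 and 362 for *Mcpt8*, 540 and 32.7 for *Ms4a2*, and 622 and 23 for *Gata2*. Without the full-set cells they were 13 and 1.54, 7.74 and 0.972, 1.13 and 0.0944, and 0.982 and 0.104 CPM. *Cpa3* went from 744 and 79.1 CPM to 60.3 and 0.274, of which 1 cell of capture 32 held 5553 of 5654 reads at P120. *Il4* had 4018 reads at P120, 4014 of them in full-set cells, and 1 read at P60. *Hdc* was at 1347 and 857 CPM over all cells and at 1240 and 861 CPM without the full-set cells.

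Across all genes, counts summed per capture were compared between P120 and P60 with edgeR's quasi-likelihood test. At an adjusted p under 0.05 it called 10 of 8346 genes, 5 of them higher at P120, so that 0.12% of genes tested were called and 0.0599% were called higher. Of the 8 members tested 1 was called, *Il6*, and nothing is read from this because the contrast chose it. Of the genes in the lists of other cell types and pathways none was called, and 443 of all genes had an unadjusted p under 0.05, while DESeq2 called 7 genes. With DESeq2's size factors edgeR called 1 gene, lower at P120, and *Il6* was no longer called. It was also not called without capture 32, without capture 40 or with only the captures of S059iso1 and S059iso2, the runs that hold both ages. Without the full-set cells, and with only cells of at least 50000 reads, it was not among the genes tested. A gene that was not called is not shown to be equal between the ages. The p-values measure the spread between captures.

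A second test asked which genes other than the members differed between member-rich and other cells of the same capture. It used the 3 captures with at least 2 cells of each class, with 6 and 31, 11 and 16, and 2 and 27 member-rich and other cells in captures 28, 32 and 38, and the capture as a block. It called 21 of 7714 genes, 8 higher and 13 lower in member-rich cells, or 0.272% of genes tested (0.104% higher and 0.169% lower). With DESeq2's size factors 8 were higher and 3 lower. Of the 8 higher genes 7 were members (*Prss34*, *Mcpt8*, *Fcer1a*, *Ms4a2*, *Cpa3*, *Gata2* and *Il6*), which the class or the choice of the list fixed.

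The only other gene called higher was *Cyp11a1*, the mitochondrial enzyme that starts steroid synthesis by cleaving the side chain of cholesterol. Its level in member-rich cells was 971, 973 and 926 CPM in captures 28, 32 and 38, against 0.203, 0.185 and 0 CPM in the other cells, and it was higher in 3 of 3 captures (log2 fold change 12.56 ± 2.48 SE, edgeR adjusted p = 0.000313). Without capture 28 its adjusted p was 0.106 and without capture 38 it was 0.321. *Cyp11a1* had at least 10 reads in all 12 full-set cells, with a median of 1634, and in 1 of the 152 other cells that reached 50000 reads.

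Among the genes called lower, 7 were from a list of 12 transcripts of the late neutrophil, proteins of the secondary granules and of mature cells. These were *Retnlg* (log2 fold change -5.34), *Ltf* (-5.28), *Lcn2* (-4.53), *Il1b* (-4.20), *S100a9*, *Ngp* and *S100a8*, and all 12 had been tested. *Retnlg*, which encodes a resistin-like protein of neutrophils, was at 114, 138 and 1768 CPM in member-rich cells of captures 28, 32 and 38 and at 11355, 3268 and 10070 CPM in the other cells (edgeR adjusted p = 8.43e-05). *Ltf*, lactoferrin, was at 53.6, 1574 and 89 CPM against 2945, 3184 and 6627 CPM (edgeR adjusted p = 0.00635). Of the 6, 11 and 2 member-rich cells in these captures, 4, 6 and 1 were full-set. In the full-set cells alone *Ltf* was at 30.3, 2.2 and 2.5 CPM. *Retnlg* was at 73.1 and 3.1 CPM in those of captures 28 and 32, but at 3341 CPM in the 1 full-set cell of capture 38. The median log2 fold change of the list was -4.23, against -0.11 over all genes tested. None of the 12 was called without capture 38, 2 were called without capture 28, 1 with DESeq2's size factors, none without the block and 5 by DESeq2.

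The lower genes outside that list included *Clec7a*, the β-glucan receptor dectin-1, *Slc11a1*, a metal transporter of phagosomes, and *Hcar2*, a receptor for hydroxycarboxylic acids. *Clec7a* was at 20.9, 0.133 and 0 CPM in member-rich cells of captures 28, 32 and 38 and at 102.8, 2429 and 747 CPM in the other cells. *Hcar2* was at 8.79, 54.5 and 3.16 CPM against 1256, 1113 and 727 CPM. *Slc11a1*, *Tpd52* and *G0s2* were also at higher levels in the other cells of all 3 captures. In no other list was a gene called: 16 genes of the IgE and IL-3 receptor pathway, 10 of histamine, eicosanoid and cytokine output, 8 transcription factors, 7 neutrophil precursor genes and 6 leukocyte genes were tested. Over all genes 342 had an unadjusted p under 0.05, and DESeq2 called 1 neutrophil precursor gene lower and 8 genes of the other lists, so that the absence of a call does not show equal levels. In the full-set cells the sum of the late neutrophil genes ranged from 48.4 to 46935 CPM with a median of 322, and in the other cells from 27.8 to 489086 CPM with a median of 129498.

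The full-set cells were then described by whole lists of genes, without a test because the class was chosen after the counts were seen. Of the 19 genes of the IgE and IL-3 receptor pathway, 9 had at least 10 reads in 6 or more of the 12 cells. *Fcer1g*, the γ chain that FcεRI shares with other Fc receptors, had the most reads of the list, 30 to 2741 with a median of 1120, and was also present in 119 of 152 other cells. *Csf2rb* and *Csf2rb2*, the β chains of the IL-3 receptor, were each present in 11 full-set cells, and in 45 and 4 of the 152 others. *Itga2b*, an integrin chain, was present in 11 and in none of the others, and *Cd200r3*, a receptor of basophils and mast cells, in 6 and in none. Genes of the same list also went the other way. *Lyn*, *Plcg2* and *Crlf2* were present in 41.7%, 8.33% and 0% of full-set cells and in 50%, 24.3% and 5.92% of the others. *Il3ra* and *Kit* had a median of 0 reads in the full-set cells and were present in 3 and 2 of the 12.

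Of 14 genes for histamine storage, eicosanoids and cytokines, 9 were at 10 reads in 6 or more full-set cells, and *Ccl4*, a chemokine, had the most reads with a median of 2090. *Alox5* and *Alox5ap*, which begin leukotriene synthesis, were present in all 12, and also in 59 and 115 of the 152 others. *Hgf*, hepatocyte growth factor, was present in 11 of the 12 and in 5 of the 152 others. Of 12 transcription factors 4 reached that limit. *Runx1* was present in all 12 at a median of 1521 reads, and in 36 of the 152 others. *Mitf*, a factor of mast cells, had no more than 2 reads in any full-set cell.

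None of the 7 mast cell granule genes had 10 reads in any full-set cell, 6 of them had no read and *Tpsb2* had at most 1. Among the 8 eosinophil genes the summed level had a median of 0 CPM, and *Prg2*, the list's most abundant, had at least 10 reads in 1 cell. The 7 neutrophil precursor genes were divided: *Mpo*, *Ctsg* and *Ms4a3* had medians of 2180, 1562 and 744 reads, whereas *Elane* had 10.5 and *Cebpe* no read in any full-set cell. *Mpo*, *Ctsg* and *Ms4a3* had at least 10 reads in 38, 21 and 36 of the 152 others. Lymphocyte genes had at most 4.96 CPM in sum, and of the 6 monocyte and 6 erythroid genes none reached 10 reads in 6 full-set cells. Of the 6 leukocyte genes, 5 had at least 10 reads in 6 or more full-set cells. *Tyrobp* led the list, present in all 12 with a median of 1516 reads and also found in 140 of the 152 others. *Ptprc*, *Coro1a*, *Tyrobp* and *Laptm5* were present in a larger share of full-set cells than of the others. *Cd52* and *Itgb2* went the other way, at 41.7% and 58.3% of full-set cells and 82.2% and 71.1% of the others.

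The sorted cells were labelled as cochlear supporting cells, and most of the markers of that label were under 10 reads both in the full-set cells and in most of the others. Of 11 supporting cell genes, 7 were under 10 reads in all 12 full-set cells and 3 of these had no read. *Otog*, *Tecta* and *Tectb* had 10 reads or more in 1 cell each, with up to 30 reads of *Otog* and 28 of *Tecta*. This was the same cell for each of them, the shallowest full-set cell, with 201535 reads, 8065 detected genes and a GFP score of 993. It also had the highest sums of the supporting cell and late neutrophil lists among the full-set cells. Whether its library holds more than 1 cell was not tested. *Lfng*, whose promoter drives the transgene, had at least 10 reads in 2 of the 12 full-set cells and in 82 of 152 others. *Sox2* had at most 2 reads in a full-set cell and *Slc1a3*, the glutamate transporter of supporting cells, at most 3, but in the 152 others *Sox2* also had 10 reads in 0 cells, *Slc1a3* in 6, *Tecta* in 4 and *Otog* and *Gjb2* in 3 each. The summed level of the list ran from 0 to 844 CPM in full-set cells with a median of 0.341 CPM. In the others its median was 18.9 CPM, and that of *Lfng* alone was 12.1 CPM. Of the 4 hair cell genes *Myo6* had 10 reads in 3 cells and the rest in none, and of the 4 endothelial genes *Pecam1* had 10 reads in 7 cells while *Cdh5* and *Cldn5* had no read. *Mpo*, *Ctsg*, *Ms4a3* and the other listed genes named in these paragraphs beside the most abundant of each list were picked after their values were seen.

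**Figure D5:**
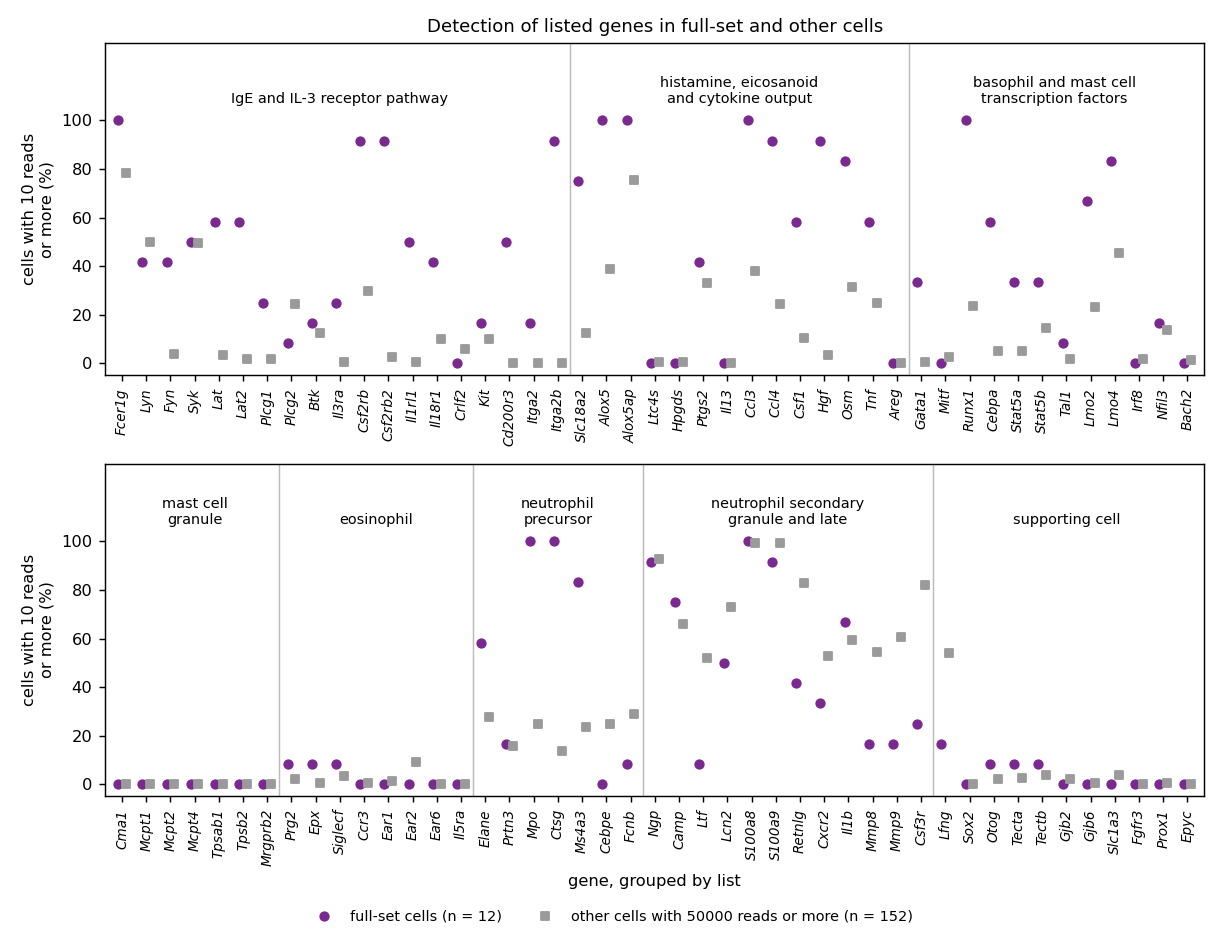
Percent of cells with at least 10 reads of each gene of 8 lists, for the 12 full-set cells (purple circles) and for the 152 other cells with at least 50000 reads (grey squares). *Itga2b* and *Cd200r3* were at 91.7% and 50% of full-set cells and 0% of the others, the mast cell granule genes were at 0% in both, and *Ltf* was at 8.33% and 52%.

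The genes whose levels followed the lineage members most closely were found over the 164 cells with at least 50000 reads, by Pearson's r between log2(CPM + 1) of a gene and the mean of the 7 members, among 13649 genes. These r are descriptions, since 12 of the 164 cells set them and the cells share captures and depth. *Cyp11a1* had the highest r of the genes that are not members (0.922), followed by *Stx3* (0.910), a syntaxin of granule fusion, *Itga2b* (0.907) and *Slc7a8* (0.879), an amino acid transporter. The remaining 6 of the first 10 were *Mns1*, *Csrp3*, *Ptprs*, *Angpt1*, *Inpp4b* and *Gnb4*, with r from 0.818 to 0.756. *Stx3* had at least 10 reads in 11 full-set cells with a median of 555.5 and in 1 of 152 others, and *Csrp3*, a LIM protein known from muscle, in 8 and in none. *Angpt1*, a vascular growth factor, was present in 8 full-set cells and in none of the others. Of the cytokine members *Il6* had r = 0.813 and *Il4* 0.669, and *Hdc*, though part of the mean, had 0.358.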

How the data were processed

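Single-cell RNA-seq of GFP-positive cells of adult Lfng-EGFP cochleae was analysed. Per the paper, the reads were split by cell and mapped by the authors to GRCm38 (mm10) using STAR v2.5 and the GENCODE vM11 annotation, then counted by gene, and the submitters' processing notes name the same tools. The deposited values are raw read counts per gene and cell, not normalized, with 92 spike-in sequences, which were left out. The deposited metadata give age, capture, run, the authors' count of uniquely mapped reads and their normalized GFP score. There were 0 columns of other series. The EGFP entry was not used, and no doublet caller was run.

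Symbols and positions came from GENCODE vM21, and 48349 identifiers matched. Levels are counts per 1e6 reads on genes (CPM), with a pseudocount of 1 CPM on the log2 scale, and reads per kilobase used the exon length. Summed counts of each capture, or of each class within a capture, were tested with edgeR 4.0.16 (TMM, filterByExpr, quasi-likelihood F test, Benjamini-Hochberg at 0.05) in R 4.3.3, with DESeq2 1.42.0 as an alternative. Captures are the replicates. The paper's test over cells was not used. The fits were tested on simulated data, and at the spread of the real counts they recovered few or none of the changed genes. The absence of a call therefore carries little weight. Confidence intervals of shares are exact 95% (Clopper-Pearson). Python 3.11.15, pandas 2.3.3, numpy 2.4.6, scipy 1.17.1 and matplotlib 3.10.9 were used.

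The members and lists were chosen with earlier results of these data known, and the full-set class after the counts were seen. Named genes were the members, in each list up to 4 genes called and the gene with the most reads, the 10 genes most like the lineage members, and the 8 largest calls in each direction between the classes. Alternatives covered the tool, size factors, filter, block, class limits, depth, run, pseudocount and leaving out captures or cells.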

Additional observations from a re-analysis of the deposited data

Results flagged for a closer look

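In each age, 10 values per capture (the CPM of the 9 members and the share of full-set cells) were checked for a capture far from the rest by Dixon's ratio, and 12 of the 20 exceeded the 95% critical value. Chance would exceed it in about 1 in 20 groups, but that rate does not apply here, because the members were chosen for lying together in a few cells and the values are not independent. They are a description. At P60 capture 9c, with the only full-set cell of that age (5.26% of its cells), stood above the other 7 captures with 5303 CPM of *Prss34*, 2928 of *Mcpt8*, 63.2 of *Fcer1a*, 264 of *Ms4a2*, 640 of *Cpa3* and 186 of *Gata2*. At P120 capture 32 stood apart with 28248 CPM of *Prss34*, 2013 of *Cpa3* and 2025 of *Il6*, where the next captures were at 4262, 326 and 266 CPM.

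The remaining values rest on 1 read each. *Il6* at 8.39 CPM in capture 10c came from a capture whose median depth was 451 reads per cell, and *Il4* at 0.0294 CPM in capture 31 was the only read of that gene at P60.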

How the results depend on the processing

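The *Il6* difference of 9.4 in log2(CPM + 1) was 3.94 as a difference of the mean CPM of cells, 6.2 with a pseudocount of 10 CPM, 5.84 without the 5 highest P120 cells, 0.48 without the member-rich cells and 0.67 without the full-set cells, an alternative added after the counts were seen, as were all others that use full-set cells. Leaving out captures gave 7.46 (without capture 32) to 9.90. The *Fcer1a* difference of 6.25 was 0.36 without member-rich cells, 0.70 without full-set cells and 9.24 with only captures of the runs S059iso1 and S059iso2. Leaving out captures gave 4.94 (without capture 32) to 9.27 (without capture 9c). Both kept their sign under every alternative run. Without member-rich or full-set cells the levels of both genes at both ages were below the pseudocount of 1 CPM, which limits these differences. The share of member-rich cells was 16.5 percentage points higher at P120, 25.5 points with at least 2 members as the rule, 10.03 with a minimum of 50 reads and 9.11 for full-set cells, and 8.78 (without capture 32) to 20.3 points when captures were left out. The 10 genes called between the ages became 1 with DESeq2's size factors, 22 without a filter, 2 in the runs S059iso1 and S059iso2 and 4 without full-set cells, and 1 to 16 when captures were left out, with 1 without capture 10c, 2 without 36, 5 without 20c or 38, 6 without 32 or 40 and 16 without 21c. The 21 genes called between member-rich and other cells became 11 with DESeq2's size factors, 965 by DESeq2 (490 higher and 475 lower), 6 with at least 2 members as the rule and 8 with no replicate block, and 7 (without capture 38) to 18 when captures were left out. With full-set cells as the class there were 77 calls, and 76 when the 8 other member-rich cells were left out, each a count of a class chosen after the counts were seen. The causes of these shifts were not tested. In the mean CPM of cells, 1 P60 cell of capture 10c with 365 reads counted as 2740 CPM of *Il6* from 1 read. No paired analysis of the ages was possible because each capture holds a single age.

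The precision is limited by 12 full-set cells in 4 captures, of which 1 is at P60, in run S047, which holds no P120 capture. Each capture holds a single age. Counts are reads without molecular identifiers and include amplification. Shares from the smallest captures, with 3 to 8 cells, allow values far above 0.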
